A study of Mus musculus with 5 samples.

Results

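The genes described here are the inhibitors of cyclin-dependent kinases (CDKs) and the arrest genes by which senescent cells are usually recognised. The set was written as 10 genes: Cdkn1a, Cdkn1b, Cdkn1c, Cdkn2a, Cdkn2b, Cdkn2c, Cdkn2d, Rb1, Trp53 and Lmnb1. A gene was taken when a probe set carried its symbol alone in the annotation of the array, and 9 of the 10 were found among 22206 probe sets, each with 1 probe set. No probe set was found for Trp53 by symbol or gene ID, and it is not analysed here.

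The values come from 5 Affymetrix Clariom S arrays of RNA from 3T3-L1, a mouse fibroblast line that becomes fat cells in culture. After 4 days in DMEM with 10% fetal bovine serum, all cells were differentiated for 4 days with insulin (5 µg/mL), dexamethasone (1 µM) and IBMX (0.5 mM), for 2 days with that insulin alone and for 1 day in plain medium. They then spent 72 h in RPMI-1640 with 10% serum and antibiotics. On the far side of a membrane with 0.4 µm pores, human MM.1S multiple myeloma cells were present in the 3 exposed samples and absent from the 2 control samples. The labels call them replicates without naming separate cultures, so the p-values rest on a between-sample spread that may be only technical. One line, with no other mouse cells named, stands for the adipocyte, and no myeloma cell touched it. The question put to the set is whether mature adipocytes near myeloma cells carry the transcript pattern of a senescence-like arrest.

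CDK inhibitors stop the cell cycle before DNA replication. The INK4 proteins bind CDK4 and CDK6 and keep cyclin D from activating them, whereas the CIP/KIP proteins act on CDK complexes more widely, CDK2 among them. Both act through the retinoblastoma protein, which in its unphosphorylated form holds E2F transcription factors in check, and p53 drives the arrest chiefly by inducing Cdkn1a. In senescence, Cdkn1a, Cdkn2a and often Cdkn2b are known to go up, Lmnb1 to go down, and a group of cytokines and proteases is secreted. In fat cells the same inhibitors have a second context, because 3T3-L1 cells leave the cycle when they differentiate, so that high inhibitor transcript is no sign of senescence by itself.

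Upstream sequences are shown for Cdkn1a and Cdkn2a, because each has 2 transcription starts and a single probe set annotated with both transcripts. They are RefSeq promoter windows of GRCm38.p6, cut to the 250 bases before the start. Windows of 7 of the 10 genes were used, 10 windows in all, and none was used for Cdkn1c, Rb1 or Lmnb1. The motif counts for the members therefore leave these genes out, and their upstream letters were not searched as members. A filter by chromosome was applied to the members' windows and not to the windows of all genes. The members' counts and the shares over all windows thus rest on sets chosen differently. The first Cdkn1a window lies at chr17:29090729-29090978 and the second at chr17:29093519-29093768, both on the plus strand. The Cdkn2a window at chr4:89294620-89294869 precedes the start of the Arf transcript and that at chr4:89282193-89282442 the start of the Ink4a transcript, both on the minus strand. Capitals mark a pair of CATG letters with 6 bases between them (CATGNNNNNNCATG) in Cdkn1a and an E2F motif in Cdkn2a.
Cdkn1a, upstream start: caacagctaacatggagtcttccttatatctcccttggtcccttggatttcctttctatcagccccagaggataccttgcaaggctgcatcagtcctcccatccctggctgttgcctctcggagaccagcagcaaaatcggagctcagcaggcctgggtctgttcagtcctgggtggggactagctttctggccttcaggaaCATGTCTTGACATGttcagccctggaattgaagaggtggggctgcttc
Cdkn1a, downstream start: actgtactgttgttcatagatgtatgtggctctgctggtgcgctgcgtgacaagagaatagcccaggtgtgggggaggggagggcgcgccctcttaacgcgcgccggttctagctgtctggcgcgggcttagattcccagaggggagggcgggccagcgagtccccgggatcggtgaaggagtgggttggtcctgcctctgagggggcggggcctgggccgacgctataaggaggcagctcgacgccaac
Cdkn2a, Arf start: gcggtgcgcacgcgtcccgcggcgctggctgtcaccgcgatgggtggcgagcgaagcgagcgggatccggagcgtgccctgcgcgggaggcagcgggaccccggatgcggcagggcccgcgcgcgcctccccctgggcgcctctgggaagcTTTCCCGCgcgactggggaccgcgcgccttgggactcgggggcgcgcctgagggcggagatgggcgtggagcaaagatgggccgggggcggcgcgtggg
Cdkn2a, Ink4a start: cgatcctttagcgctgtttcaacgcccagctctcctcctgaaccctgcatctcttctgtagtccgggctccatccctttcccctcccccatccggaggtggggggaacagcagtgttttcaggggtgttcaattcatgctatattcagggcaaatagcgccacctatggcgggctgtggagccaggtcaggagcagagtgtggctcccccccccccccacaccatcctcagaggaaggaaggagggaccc
The CATG pair, whose core letters are shared with p53 response elements, was chosen after the Cdkn1a window had been read. It was found in 1 of the members' 10 windows and in 0.49% of all 32851 windows of the same length. The strict p53 consensus, a pair of abutting half-sites searched on both strands without mismatches, was in 0 of the 10 and in 3 of all windows. Sites that depart from it in any base were not counted, so the 0 does not mean that the Cdkn1a window lacks a near match. The E2F motif was searched on both strands as TTTCCCGC, TTTCGCGC, TTTGCCGC or TTTGGCGC, and was in 1 of the 10 windows and in 1.86% of all. A match describes letters only, and the arrays hold no measure of binding.

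All 9 measured genes gave similar array values with and without myeloma cells. With the adjusted threshold of 0.05, limma called 0 of the 9 higher and 0 lower, against 0.0% of all 22206 probe sets in either direction, and at an unadjusted p under 0.05 it also called 0 of the 9, against 3.49% of all probe sets. For each of the 9 the 95% interval stayed within 2-fold in both directions, as it did for 92.9% of all probe sets. With either control array left out this held for 8 of the 9, the interval of Cdkn2c then reaching 1.18 without control array 1 and 1.17 without control array 2. In mean 3 were higher and 6 lower, where 49.9% of all probe sets were higher and 50.1% lower, with a median difference of -0.024 on the log2 scale beside -0.00040 for all probe sets. That split turned to 5 higher and 4 lower without control array 1 (median 0.024), without exposed array 2 (0.027) and without exposed array 3 (0.026). With 3 arrays against 2, an exact permutation test of a single gene has 10 splits and cannot give a p below 0.1.

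**Figure D1:**
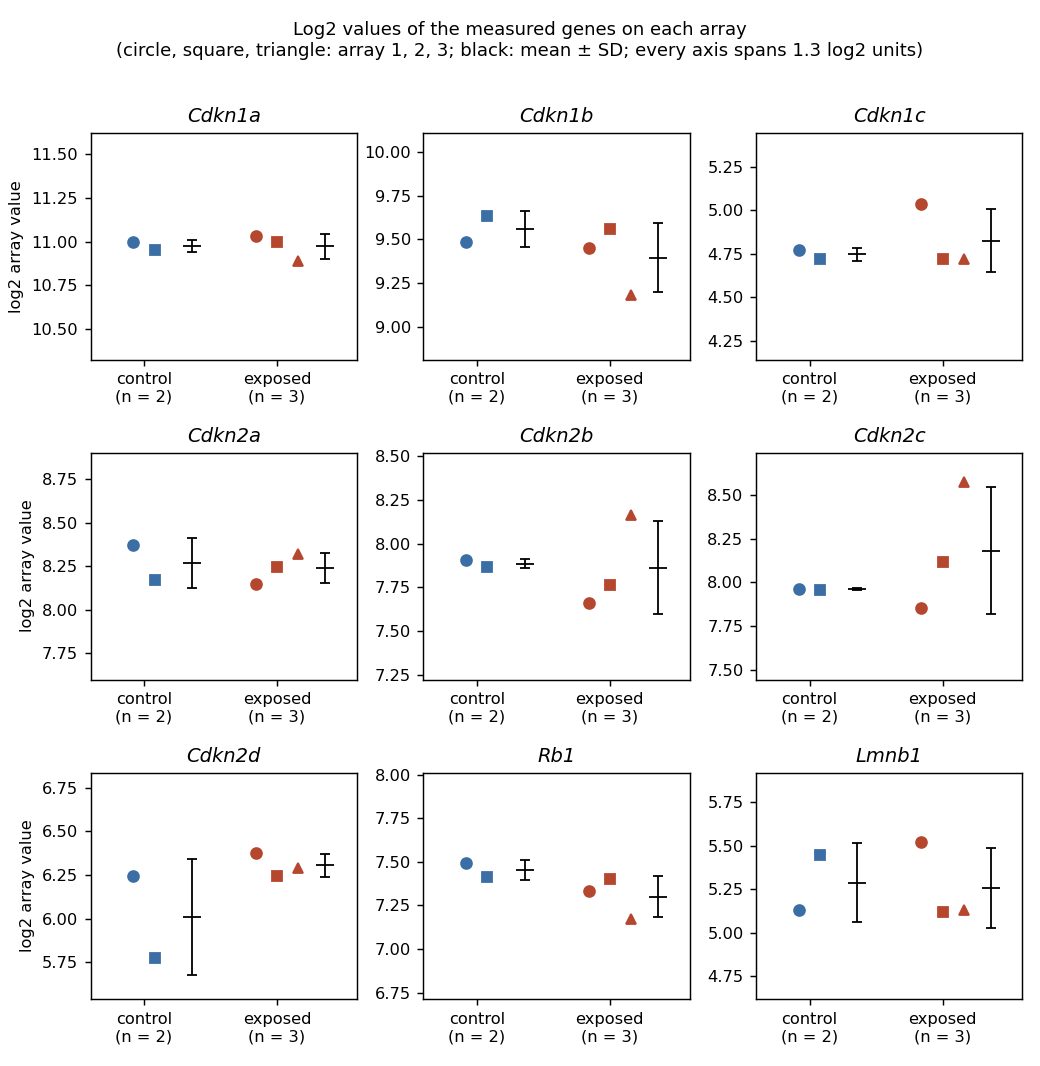
Log2 array values of the 9 measured genes, with control arrays in blue and exposed arrays in red, and the mean ± SD of each group in black. Groups overlap or touch in every panel but that of Rb1, where the highest exposed value (7.40) lies just under the lowest control value (7.41).

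Cdkn1a, which encodes p21, the CIP/KIP protein that p53 induces, was at 11.03, 11.00 and 10.89 on exposed arrays 1 to 3 and at 11.00 and 10.95 on control arrays 1 and 2. The exposed arrays lay on both sides of the control arrays. Group levels were 10.97 ± 0.07 (SD, n = 3) and 10.98 ± 0.04 (SD, n = 2), a difference of -0.0017 with a 95% interval of -0.30 to 0.30 (limma adjusted p 1.00). On a linear scale the interval runs from 1.23-fold lower to 1.23-fold higher. Its probe set was brighter than 98.8% of all probe sets over the 5 arrays, and it is annotated with both transcripts, so the start that follows the CATG pair and the other start could not be read apart.

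Cdkn1b encodes p27, the inhibitor held high in resting cells through slowed protein breakdown. It was at 9.45, 9.56 and 9.18 on exposed arrays and at 9.49 and 9.63 on control arrays. Exposed array 3 was the lowest of the 5 and exposed array 2 lay between the controls. The difference was -0.16 (-0.55 to 0.22, limma adjusted p 0.93), and it was -0.055 without exposed array 3. Skp2, which marks p27 for breakdown, differed by -0.0050 (-0.42 to 0.41). These arrays read transcripts, so a change of p27 protein would not show in them.

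Cdkn1c, the imprinted gene of p57, was at 5.03, 4.72 and 4.72 on exposed arrays and at 4.77 and 4.72 on control arrays. Exposed array 1 alone stood above the rest, and 3 of the 5 arrays carried the identical value. Such repeated values were found for 27.2% of all probe sets and for 3 of the 9 genes, Cdkn2d and Lmnb1 being the others. The difference was 0.078 (-0.29 to 0.44, limma adjusted p 0.95), and -0.026 without exposed array 1.

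In the INK4 family, none of the 4 genes was called. Cdkn2a, whose locus encodes both p16Ink4a and, from another start and reading frame, the p53 activator p19Arf, was at 8.15, 8.24 and 8.32 on exposed arrays and at 8.37 and 8.17 on control arrays. The control arrays bracketed all but the lowest exposed value. Levels were 8.24 ± 0.09 (SD, n = 3) and 8.27 ± 0.14 (SD, n = 2), a difference of -0.030 (-0.36 to 0.30, limma adjusted p 0.98), or from 1.28-fold lower to 1.23-fold higher. The probe set is annotated with 2 RefSeq transcripts, so p16Ink4a and p19Arf, the products of the starts printed above, could not be read apart.

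Cdkn2b, the neighbouring gene of p15, an inhibitor that TGF-beta induces, was at 7.66, 7.76 and 8.16 on exposed arrays and at 7.91 and 7.87 on control arrays. Exposed arrays 1 and 2 lay below both controls and exposed array 3 above them. The group means therefore nearly coincided, with a difference of -0.024 (-0.46 to 0.42, limma adjusted p 0.99), while the exposed arrays spanned 0.50.

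Cdkn2c, the gene of p18, which is induced when 3T3-L1 cells differentiate into adipocytes, was at 7.86, 8.12 and 8.58 on exposed arrays and at 7.96 and 7.96 on control arrays. Its exposed arrays spanned 0.72, and 12.4% of all probe sets spanned more there. The difference was 0.22 (-0.32 to 0.76, limma adjusted p 0.93) and came mainly from exposed array 3, as it was 0.026 without that array. Both Cdkn2b and Cdkn2c were thus highest on exposed array 3 and lowest on exposed array 1.

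Cdkn2d, the gene of p19Ink4d, was at 6.38, 6.25 and 6.29 on exposed arrays and at 6.25 and 5.77 on control arrays. Control array 2 stood below the other 4 arrays, and control array 1 shared its value with exposed array 2. The difference of 0.30 (-0.12 to 0.72, limma adjusted p 0.93) was the widest among the 9 genes, but 16.5% of all probe sets differed by more. It was 0.059 without control array 2 and 0.53 without control array 1. In the latter fit, with 1 control array left whose spread was taken from the exposed arrays, its unadjusted p was 0.016 and its adjusted p 0.76.

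**Figure D2:**
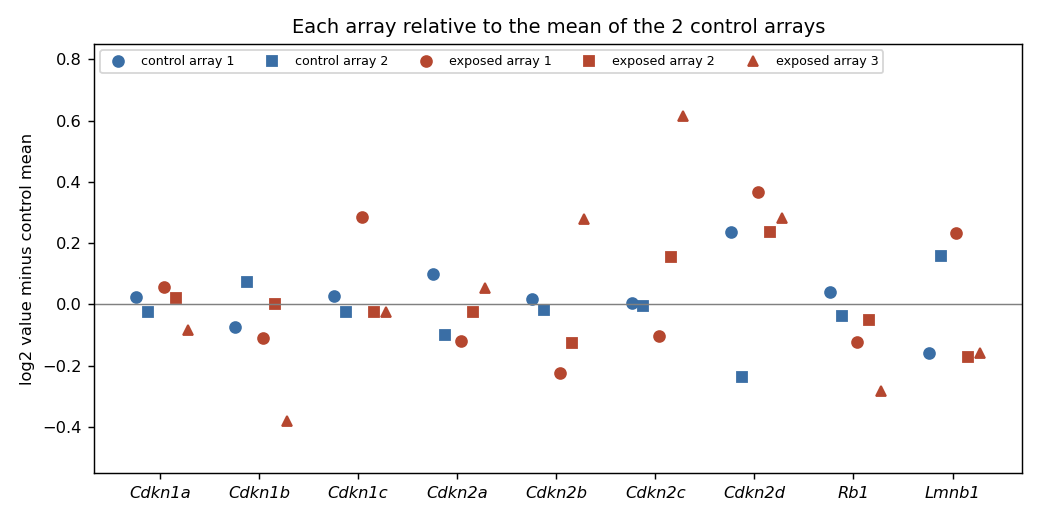
Log2 value of each of the 5 arrays minus the mean of the 2 control arrays, by gene, with control arrays in blue and exposed arrays in red. Exposed array 3 (triangles) lies at opposite ends for Cdkn1b and Cdkn2c, and control array 2 lies lowest for Cdkn2d.

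The remaining genes stand downstream of the inhibitors or mark the nuclear envelope. Rb1, the gene of the retinoblastoma protein, was at 7.33, 7.40 and 7.17 on exposed arrays and at 7.49 and 7.41 on control arrays. It was the only one of the 9 genes whose groups did not overlap, 1 of 9 (11.1%) where 17.3% of all probe sets did not overlap in either direction, 8.5% lying higher and 8.84% lower on every exposed array. The gap between the groups was small, and the difference was -0.15 (-0.48 to 0.17, limma adjusted p 0.93). Lmnb1 encodes lamin B1, a fibre of the nuclear lamina. It was at 5.52, 5.12 and 5.13 on exposed arrays and at 5.13 and 5.45 on control arrays, so that each group held a high and a low value. Its difference was -0.032 (-0.48 to 0.42, limma adjusted p 0.99).

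The spread inside the exposed group was wider than the difference between groups for 8 of the 9 genes, Cdkn2d being the exception. The share of all probe sets with such a spread was not counted. The exposed range had a median of 0.31 over the 9 genes, beside 0.35 over all probe sets. Over all probe sets the absolute difference between groups had a median of 0.13, so a spread wider than the difference is not particular to these genes. Of the 9 genes, 3 were lowest on exposed array 3 and 3 on exposed array 1, and 4 were highest on exposed array 1. The direction of the smaller differences followed from which array was kept. Leaving out each array in turn moved the Cdkn1a difference between -0.031 and 0.039, that of Cdkn2a between -0.13 and 0.070, that of Cdkn2b between -0.18 and 0.076 and that of Lmnb1 between -0.19 and 0.13.

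**Figure D3:**
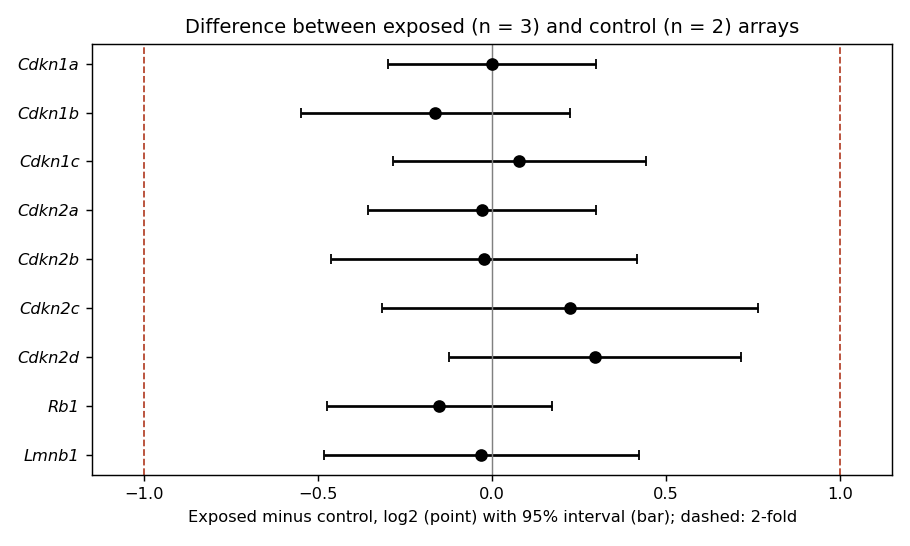
Exposed minus control on the log2 scale for each gene (points) with the 95% interval of the limma fit (bars), n = 3 exposed and n = 2 control arrays. Every interval crosses 0 and stays inside the dashed lines of a 2-fold difference.

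The table carried no detection calls, so the signal of genes that fat cells are not expected to use served as a scale. Over 1091 olfactory receptor probe sets the mean log2 value had a median of 2.55 and a 95th percentile of 4.03. All 9 genes lay above that percentile, Cdkn1c with a mean of 4.79 and Lmnb1 with a mean of 5.27 being the dimmest. The percentile is itself below the array medians of 4.80 to 4.88, so passing it does not set a gene apart. The mean of Cdkn1c was just under those medians. Brightness depends on the probes, so these values do not rank the genes against each other.

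Set against the textbook pattern, the 3 inhibitors that go up in senescence, Cdkn1a, Cdkn2a and Cdkn2b, each had a group mean marginally lower on exposed arrays. Their intervals reached at most 1.23-fold, 1.23-fold and 1.33-fold higher. Among genes known to go down, Lmnb1 and the chromatin proteins Hmgb1 and Hmgb2 had means lower on exposed arrays, at -0.032, -0.25 (-0.67 to 0.16) and -0.013 (-0.34 to 0.32). None was called, and the groups overlapped for all 6. The textbook pattern was also taken to include lower S phase genes and higher secreted factors. S phase genes were 3 higher and 16 lower of 19 in mean (median -0.096), the textbook direction, with 0 called. Without exposed array 1 they were 8 higher and 11 lower. Secreted factors were 16 higher and 17 lower of 33 (median -0.0014), with 0 called. Arrays of whole cultures do not tell fewer cells with a transcript from less of it per cell, so a few arrested cells among many might not be seen.

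Around the inhibitors, 7 lists of pathway genes gave no call either, with 0 genes in either direction in each. Cyclins and CDKs, the targets of the inhibitors, had 6 of 16 measured genes higher and 10 lower in mean (median -0.067). The INK4 targets Cdk4 and Cdk6 differed by -0.12 (-0.48 to 0.25) and -0.28 (-0.77 to 0.21), and Cdk2, the CIP/KIP target, by -0.096 (-0.51 to 0.32). Without exposed array 3 Cdk4 differed by -0.0091, and Cdk6 differed by -0.10 without exposed array 1 and by -0.17 without control array 1. The widest differences were those of Cdc25c, a phosphatase of mitotic entry, at -0.53 (-0.93 to -0.13), and the mostly germline cyclin Ccna1 at 0.42 (0.052 to 0.78). Both had a limma adjusted p of 0.93, and both probe sets were dimmer than the median level of all probe sets. The sign of the list's median depended on 1 array, since without exposed array 1 it was 0.044, with 10 higher and 6 lower.

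Pocket proteins and E2F factors, the partners of the retinoblastoma protein, were 5 higher and 11 lower of 16 (median -0.090). The repressor genes E2f7 and E2f8 lay on opposite sides, at 0.32 (-0.0083 to 0.65) and -0.42 (-0.97 to 0.13). S phase genes under E2F control were 3 higher and 16 lower of 19, with a median of -0.096, where 50.1% of all probe sets were lower in mean. DNA polymerase alpha gene Pola1 differed by -0.47 (-0.97 to 0.043), the replication factor gene Gins1 by -0.43 (-0.89 to 0.030) and the proliferation marker Mki67 by -0.070 (-0.37 to 0.23). Exposed array 1 was low over that list, with a mean level of 6.08 beside 6.26 on each of the other exposed arrays and 6.36 and 6.28 on control arrays 1 and 2. The list had 8 genes higher and 11 lower (median -0.047) without exposed array 1, and without control array 1 it had 7 higher and 12 lower (median -0.021).

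p53 regulators and targets were 12 higher and 9 lower of 21 (median 0.036). They were 10 higher and 11 lower without exposed array 2 (median -0.027) and without control array 1 (median -0.0066). Mdm2, the ubiquitin ligase that p53 induces and that degrades it, was at 11.87, 11.86 and 11.84 on exposed arrays and at 11.97 and 11.86 on control arrays, a difference of -0.059 (-0.35 to 0.23). The kinase gene Plk2 differed by -0.36 (-0.77 to 0.042) and Rrm2b, a ribonucleotide reductase subunit gene induced by p53, by -0.45 (-0.93 to 0.034), each at an adjusted p of 0.93. The groups did not overlap for 7 of the 21 genes (33.3%, beside 17.3% of all probe sets), 4 of them higher and 3 lower, where 8.5% and 8.84% of all probe sets did so. In the other pathway lists that share ran from 5.0% (nuclear lamina and chromatin genes, p27 and INK4 regulators) to 25.0% (pocket proteins and E2F factors).

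Of 33 measured senescence-associated secreted factors, 16 had a higher and 17 a lower mean (median -0.0014). Higher genes were 18 of 33 without exposed array 1 (median 0.031) and 20 of 33 without control array 1 (median 0.012). The interleukin gene Il6 was at 4.39, 4.72 and 5.75 on exposed arrays and at 5.06 and 5.83 on control arrays, so the values of each group were spread over those of the other, and its interval (-1.55 to 0.56) reached beyond 2-fold on the lower side. The chemokine gene Ccl20 differed by 0.60 (-0.19 to 1.38), or by 0.30 without exposed array 3. For 29 of the 33 genes the interval stayed within 2-fold. Nuclear lamina and chromatin genes were 8 higher and 12 lower of 20 (median -0.027), or 11 higher and 9 lower without exposed array 2 (median 0.0080), with Lmnb2 at 0.31 (-0.40 to 1.02), the lamin B receptor gene Lbr at -0.34 (-0.69 to 0.018) and Lmna, the gene of lamins A and C, at 0.0026 (-0.30 to 0.30). Regulators of p27 turnover and of INK4 transcription were 14 higher and 6 lower of 20 (median 0.031). They were 10 higher and 10 lower without exposed array 3 (median 0.011) and likewise without control array 1 (median 0.011), and 17 higher and 3 lower without control array 2 (median 0.075). The widest differences in this list were those of the transcription factor genes Foxo3 at 0.31 (-0.31 to 0.93) and Tfap4 at 0.27 (-0.11 to 0.65). Leaving out 1 array moved Foxo3 between 0.11 (without control array 1) and 0.53 (without exposed array 3) and Tfap4 between 0.16 (without exposed array 3) and 0.35 (without exposed array 1).

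**Figure D4:**
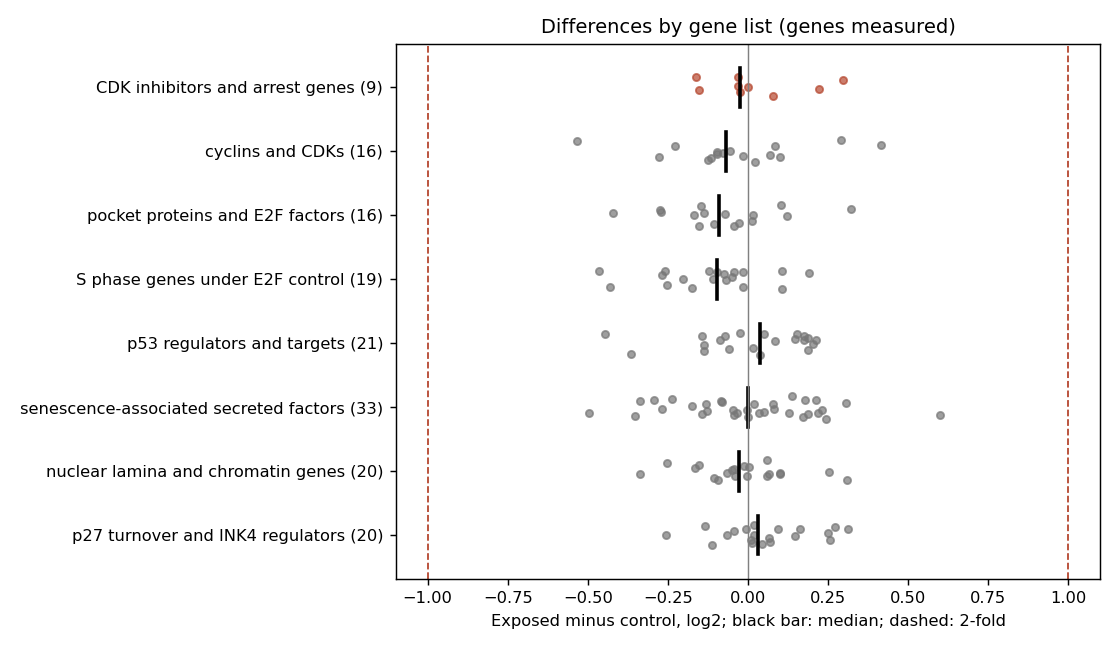
Exposed minus control on the log2 scale for every measured gene of the 9 CDK inhibitors and arrest genes (red) and of 7 pathway lists (grey), with list medians as black bars and dashed lines at 2-fold. Every point lies inside 2-fold, and list medians run from -0.096 to 0.036.

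Averaged over each list, adipocyte markers gave high signal under both conditions, and markers of blood cells gave low signal. Single markers departed from this. At or above the median level of all probe sets were 9 of the 10 adipocyte markers, 2 of the 9 B and plasma cell markers and 2 of the 7 macrophage markers. The mean log2 level of 10 adipocyte markers was between 9.02 and 9.12 on exposed and between 9.09 and 9.10 on control arrays, while 9 B and plasma cell markers were between 4.12 and 4.35 and between 4.14 and 4.34, and 7 macrophage markers between 3.82 and 4.01 and between 3.91 and 4.09. Preadipocyte and fibroblast markers, which stay on in this line, were lower in mean for 7 of 8 genes, with a mean level between 8.91 and 8.97 on exposed arrays and of 9.06 on each control array. The groups did not overlap for 3 of these 8 genes, all lower (37.5%, beside 17.3% of all probe sets in either direction and 8.84% lower). The part of these markers in the values of the arrest genes was not tested. Over all 22206 probe sets limma called 0 (smallest adjusted p 0.93), and array medians lay between 4.80 and 4.88.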

How the data were processed

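RNA of 5 samples was measured on 1 array each, 3 exposed and 2 control. The deposited values are log2 values per probe set, made by the authors with RMA in Partek, per the submitters' processing notes; RMA compresses differences between dim probe sets, and versions and annotation build are not given in the sources used here. All 5 value columns were used. Genes were named from the platform annotation (19572 probe sets with 1 symbol, 2634 with none).

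The 2 groups were compared by limma 3.58.1 (R 4.3.3) with lmFit and eBayes, without covariates or filter, two-sided, over all 22206 probe sets, with Benjamini-Hochberg adjustment over all of them and calls at an adjusted p under 0.05. The 3 residual degrees of freedom were joined by 3.17 from the prior. Differences are exposed minus control, with 95% intervals, and levels are mean ± SD. The code was tested on simulated data. The number of arrays limits the precision. No set test was run.

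The 10 genes and the 7 pathway lists (156 genes) were chosen with earlier results of these data known. All 10 genes were to be described. From each list up to 4 called genes or, with none called, the 2 with the largest difference were named, and Mdm2, Ccnd1, Cdk4, Cdk6, Cdk2, Mki67, Il6, Glb1, Lmna, Hmgb2 and Skp2 whatever their result (Ccnd1 and Glb1 had no probe set by symbol or gene ID and are not analysed here). Hmgb1 was named for its textbook direction. No gene was named for a like pattern across 5 arrays. Alternatives were an intensity trend, array weights, median centring, a filter on dim probe sets, named probe sets alone, 2 kinds of block, leaving out each array, and an unadjusted threshold.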

Additional observations from a re-analysis of the deposited data

How the results depend on the processing

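Under all 12 alternative fits limma called 0 of the 9 genes and 0 probe sets, also with each array left out (0 to 0). With dim probe sets left out, 8 of the 9 were tested, without Cdkn1c. The named genes Cdc25c, Ccna1, E2f8, Gins1 and Lmnb2 were left out by that filter too. The unadjusted threshold of 0.05 gave 776 probe sets and 0 of the 9 genes, and without control array 1 it was 1378 and 1 (Cdkn2d). Of the 9 genes 4 kept their sign throughout (Cdkn1b, Cdkn2c, Cdkn2d and Rb1), as did 21 of the 31 named genes. All sign changes were of uncalled differences. With array weights Cdkn1a was at 0.0046, and with median centring Lmna at -0.015. The labels number replicates in both groups without saying whether same-numbered arrays were paired. Deviations of same-numbered arrays from their group means correlated at -0.014 and -0.032. Deviations of the 2 control arrays mirror each other, so these values cannot decide whether the numbers mark a pairing. With the replicate block, where exposed array 3 has no partner, Cdkn1a was at 0.039, Lmnb1 at 0.032 and Lmna at -0.023. With neighbouring title numbers as a block, which leaves exposed array 1 without a partner and so gives the values without that array, Cdkn1c was at -0.026, Cdkn2a at 0.014, Cdkn2b at 0.076, Cdk2 at 0.039, Hmgb2 at 0.031 and Skp2 at 0.046. Leaving out 1 array gave ranges of -0.031 to 0.039 for Cdkn1a, -0.026 to 0.13 for Cdkn1c, -0.13 to 0.070 for Cdkn2a, -0.18 to 0.076 for Cdkn2b, -0.19 to 0.13 for Lmnb1, -0.10 to 0.72 for Lmnb2, -0.18 to 0.039 for Cdk2, -0.023 to 0.049 for Lmna, -0.082 to 0.043 for Hmgb2 and -0.15 to 0.14 for Skp2. With 1 control array left, its spread is assumed to equal that of the exposed arrays. With dim probe sets left out, the median of the p53 list was -0.0051 and that of the secreted factors -0.039 (10 higher and 14 lower). With the replicate block the 9 genes were 5 higher and 4 lower (median 0.026), and the p27 and INK4 regulators 10 and 10. The cause of these changes of sign was not tested. The only list gene with another probe set was E2f3, which is not named.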
